A study of Caenorhabditis elegans with 2 samples.

Results

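Promoter peaks of the C17E4.6 protein were examined at 10 genes of Caenorhabditis elegans grouped as histone lysine methyltransferase genes. The genes were set-1, set-2, set-4, set-16, set-21, set-25, met-1, met-2, mes-2 and mes-4. They are 10 of 19973 coding genes in the annotation. The genes were chosen by their family and with the presence, signal and score of their promoter peaks known, so the counts and levels below describe them and no test was made on them. The worms were of strain RW12293, in which CRISPR had placed TY1, EGFP and 3xFLAG tags on the C17E4.6 gene itself (allele st12293), and every sample carried this insertion. Whole young adults were used at 62 hours, after synchronisation as starved first-stage larvae, and chromatin was immunoprecipitated through the EGFP tag. There was 1 group of 2 biological replicates, and no untagged or input sample was analysed here. Whole animals were used, so the tissue in which a site was occupied is not known. Peaks of many factors can pile up at open promoters, and how far the sites below are particular to this protein was not tested.

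Histone lysine methyltransferases add methyl groups to lysines of the histone tails, most of them through a SET domain. Methylation of H3K4 and H3K36 is found at active genes, whereas methylation of H3K9 and H3K27 is found in silent chromatin, and methylation of H4K20 is tied to chromosome compaction. In the worm, several of these enzymes are needed in the germline, and the MES proteins are named for the maternal-effect sterility of their mutants. C17E4.6 encodes a VPS72 (YL1) homologue, and YL1 proteins of yeast and mammals bind the histone variant H2A.Z within the complexes that deposit it.

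Of the 10 genes, 4 had a thresholded peak at the promoter: set-16, set-21, set-2 and set-4. A gene was counted as marked when a peak summit, the base the authors gave as the peak's highest point, fell in the promoter window, which began 500 bp upstream of the annotated 5' end and ended 200 bp inside the gene. In the combined thresholded list, which the authors made from both replicates and which held 1017 peaks, 558 of the 19973 coding genes (2.79%) were marked. The lowest score in the thresholded lists was 830, an irreproducible discovery rate (IDR) of 0.01, but score alone did not decide entry, since 70 peaks of the combined ranked list with at least that score were absent from the combined thresholded list. Ranks are by signal, and the ranked list also holds peaks of high signal and low score, so ranks in the thresholded and the ranked lists differ. The conservative list marked 3 of the 10 genes (2.66% of coding genes), all but set-4. The thresholded list of replicate 1 marked the same 4 genes (1.72% of coding genes), and that of replicate 2 marked 2, set-16 and set-21 (1.34% of coding genes). The other 6 genes had summits only in the ranked lists, which keep weak and irreproducible sites. In the combined ranked list of 65464 peaks all 10 genes had a summit of some score in the window, and 42.9% of coding genes did. At a looser score of 540, an IDR of 0.05, the same 4 genes were marked, with 4.32% of coding genes. In the combined list the threshold fell in a wide gap: the marked genes all had the capped score of 1000, and the next gene, met-1, had 352. In replicate 2 the threshold also fell in a gap, between 1000 at set-16 and set-21 and 378 at set-2. Its scores did not separate the same 4 genes from the rest, since set-4 had 152 and mes-2, which was not marked, had 153.

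**Figure D1:**
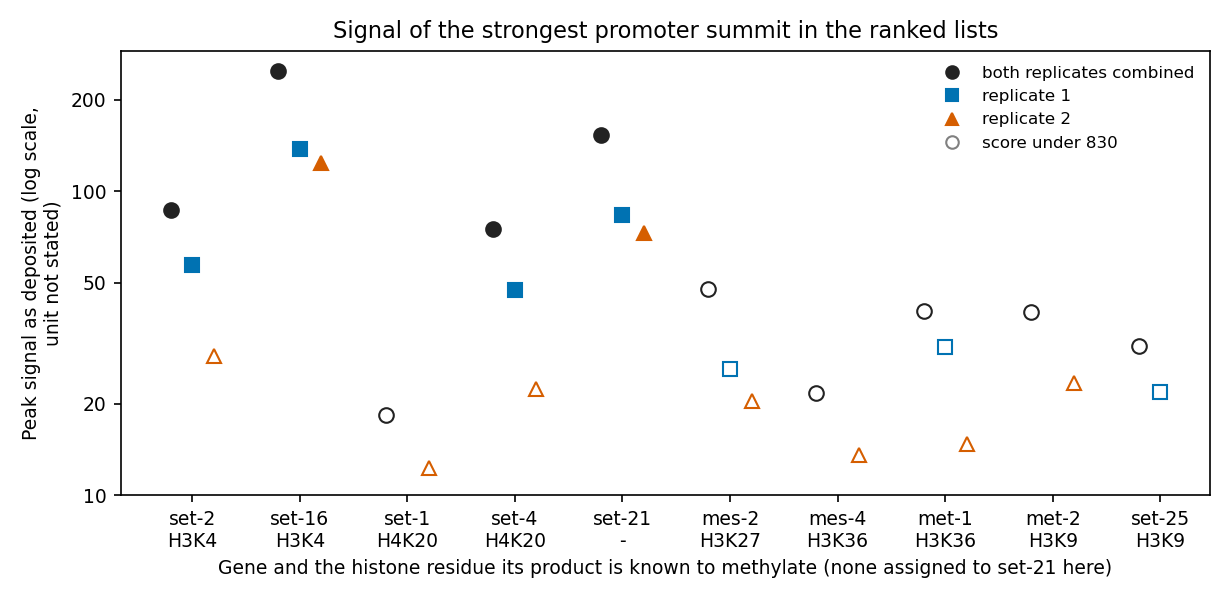
Signal, as deposited and on a log scale whose unit is not stated, of the summit of highest signal in each gene's promoter window in the ranked lists; filled symbols have a score of at least 830, and a missing symbol means no summit in that list. The combined signal ran from 249 at set-16 to 18.4 at set-1, and both replicates had filled symbols only at set-16 and set-21.

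The highest site of the 10 lay upstream of set-16, which encodes an H3K4 methyltransferase related to the mammalian MLL enzymes. Its peak had a signal of 249 in the combined list, rank 16 of 1017, on the scale of the authors' peak caller. The signal was 138 in replicate 1 and 124 in replicate 2, with a score of 1000 in each, and the site ranked 17 of 570 and 13 of 414 in their thresholded lists, so both replicates placed it among their strongest. The summit in the combined list was at 13643751 on chromosome III, 165 bp upstream of the annotated 5' end, and the replicate summits lay within 3 bp of it. The peak was 124 bp wide in the combined list, where 95.2% of the peaks had the common width of 284 bp. In each replicate's list it had the common width, 280 bp in replicate 1 and 244 bp in replicate 2. The site lies in a gap of 345 bp between set-16 (WBGene00011729, plus strand, 13643916 to 13656637) and drr-2 (WBGene00011730, minus strand), a gene of the translation machinery that is transcribed away from it. The summit was 181 bp upstream of the 5' end of drr-2, inside that gene's window too, so the peak cannot be assigned to 1 of the 2 genes. The 121 bp around the summit (ce11, plus strand, chrIII:13643691-13643811, the summit being base 61) are shown because they hold 2 copies of the EOR-1 motif, in capitals.
set-16: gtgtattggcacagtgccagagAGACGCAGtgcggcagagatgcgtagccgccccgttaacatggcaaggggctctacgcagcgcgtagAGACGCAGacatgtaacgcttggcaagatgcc

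The other H3K4 methyltransferase gene, set-2, had a weaker peak that rested mainly on replicate 1. SET-2 is the catalytic subunit of the worm's SET1/COMPASS complex. The combined signal was 86.7, rank 421 of 1017. Replicate 1 gave a signal of 57.3 with a score of 981, and replicate 2 gave 28.7 with a score of 378, below the threshold. The combined summit was at 4930449 on chromosome III, 245 bp upstream of the 5' end of set-2 (WBGene00004782, minus strand, 4922427 to 4930204), and the replicate 2 summit was 10 bp away. It lay in a gap of 397 bp between genes of the same strand, 153 bp beyond the 3' end of C26E6.12, and in no other coding gene's window. A second thresholded peak flanked set-2 at its other end, with its summit at 4922285, 142 bp beyond the gene's 3' end and 171 bp upstream of mmab-1, which encodes an enzyme of vitamin B12 metabolism. Its signal was 64.9 and its score 965. The sequence around the upstream summit (ce11, minus strand, chrIII:4930389-4930509) is shown with its E2F motif in capitals.
set-2: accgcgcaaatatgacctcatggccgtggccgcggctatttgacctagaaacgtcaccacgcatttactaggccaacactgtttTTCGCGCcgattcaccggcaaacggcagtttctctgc

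The 2 genes for H4K20 methylation differed. SET-4 makes the di- and trimethylated forms of H4K20, and SET-1 makes the monomethylated form on which it acts. At set-4 (WBGene00016313, chromosome II, minus strand, 6329838 to 6331341) the combined signal was 75.04, rank 592 of 1017, with the summit at 6331567, 226 bp upstream. Replicate 1 gave a signal of 47.3 with a score of 901, whereas replicate 2 gave 22.4 with a score of 152 and its summit 68 bp from the combined one. In the ranked list behind the conservative list the site had a score of 761, under the threshold, so set-4 was the least reproducible of the 4 marked genes. The gap around this summit measured 478 bp, between set-4 and ttc-39B on the same strand, whose 3' end was 253 bp away. At set-1 (WBGene00004781, chromosome III, minus strand) the only combined summit lay 496 bp upstream, just inside the window, with signal 18.4 and score 28. Replicate 2 had a signal of 12.3 there with a score of 14, and replicate 1 had no summit in the window. The nearest thresholded summit to the 5' end of set-1 was 7907 bp away. The sequence around the set-4 summit (ce11, minus strand, chrII:6331507-6331627) had no match to the 6 motifs searched and is shown as the marked site without any of them, so it holds no capitals.
set-4: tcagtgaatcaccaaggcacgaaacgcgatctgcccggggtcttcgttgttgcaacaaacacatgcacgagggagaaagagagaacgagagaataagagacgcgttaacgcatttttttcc

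The site of second highest signal was at set-21, a SET-domain gene to which no histone residue is assigned here. Its combined signal was 153, rank 91 of 1017. The replicates gave 83.8 and 72.8, each with a score of 1000, and their summits lay within 6 bp of the combined summit at 4390653 on chromosome IV, 191 bp upstream of set-21 (WBGene00021282, plus strand, 4390844 to 4393406). This site was closer to another gene. The summit was 63 bp upstream of rpl-7A (WBGene00004419, minus strand), a gene for a component of the ribosome's large subunit, in a gap of only 253 bp between the divergent genes. It was also 345 bp upstream of Y24D9A.9, a snoRNA gene inside rpl-7A. When each peak was given only to the coding gene with the nearest 5' end, set-21 was no longer marked, and set-16, set-2 and set-4 still were. The sequence (ce11, plus strand, chrIV:4390593-4390713) carries a CHR motif, in capitals near its end.
set-21: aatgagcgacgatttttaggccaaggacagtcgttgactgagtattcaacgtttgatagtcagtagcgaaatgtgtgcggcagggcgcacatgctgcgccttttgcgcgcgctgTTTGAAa

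The H3K27 methyltransferase gene mes-2 had the highest signal of the 6 genes below the threshold. MES-2 is the worm's Enhancer of zeste protein and works in a Polycomb-type complex with MES-3 and MES-6. The combined signal was 47.5 with a score of 254, rank 2581 of 65464, at a summit 168 bp upstream of mes-2 (WBGene00003220, chromosome II, plus strand, 14383973 to 14388454). Replicate 1 gave a signal of 26.0 with a score of 100 and replicate 2 gave 20.4 with a score of 153, and their summits were 11 and 43 bp from the combined one. Both replicates therefore listed a weak summit near the same place, and in neither did it pass. Its sequence (ce11, plus strand, chrII:14383745-14383865) is shown because 3 matches to the E2F motif lie in it, the last pair overlapping on opposite strands, with a CHR motif between them, all in capitals.
mes-2: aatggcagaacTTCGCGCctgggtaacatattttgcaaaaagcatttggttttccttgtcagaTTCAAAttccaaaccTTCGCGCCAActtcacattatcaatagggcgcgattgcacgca

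**Figure D2:**
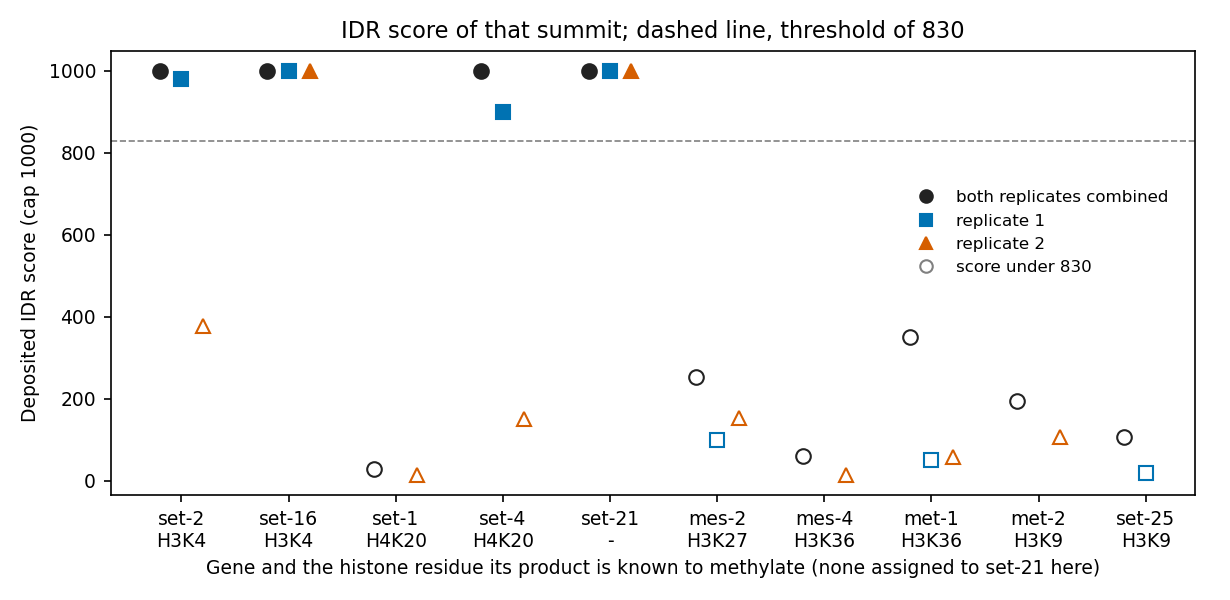
IDR score, capped at 1000, of the same summits in the combined and replicate ranked lists, with the threshold of 830 as a dashed line and filled symbols at or above it. The score of replicate 2 was 378 at set-2 and 152 at set-4, and it was 1000 at set-16 and set-21.

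Neither gene for H3K36 methylation was marked. MES-4, which maintains H3K36 methylation in the germline, and MET-1, the homologue of yeast Set2, are the worm's main enzymes for this mark. At mes-4 (WBGene00003222, chromosome V, minus strand) the combined summit in the window lay 239 bp upstream, with signal 21.7 and score 60. Replicate 2 listed a signal of 13.5 there with a score of 14, and a second summit 155 bp downstream with signal 13.1 and score 90. Replicate 1 had no summit in the window. A stronger combined ranked summit lay outside the window in an exon of mes-4, 486 bp downstream, with signal 34.3 and score 499. At met-1 (WBGene00016603, plus strand) the summit lay 67 bp upstream, in an intron of the neighbouring gene C43E11.12, with signal 40.2 and score 352. Replicate 1 gave a signal of 30.8 at this site with a score of 50. Replicate 2 had its summit 111 bp downstream of the 5' end instead, with signal 14.8 and score 59, so the 2 replicates did not place the met-1 site within 100 bp of each other.

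Neither gene for H3K9 methylation was marked. MET-2, related to mammalian SETDB1, makes mono- and dimethylated H3K9, and SET-25 makes the trimethylated form. At met-2 (WBGene00019883, chromosome III) the combined signal was 40.1 with a score of 195, at a summit 64 bp downstream of the 5' end and inside an exon. Replicate 2 had a signal of 18.3 there with a score of 64 and a second summit, just inside the window at 497 bp upstream, with signal 23.4 and score 106. Replicate 1 had no summit in the window. A combined ranked summit of about the same signal, 40.6, lay just outside the window, 546 bp upstream, with a score of 61. At set-25 (WBGene00012802, chromosome III) the combined signal was 31.0 with a score of 107, at a summit 5 bp downstream of the 5' end. Replicate 1 gave a signal of 21.9 with a score of 19 and replicate 2 had no summit in the window. The nearest thresholded summit to the 5' end of set-25 lay 3399 bp upstream, and that of met-2 lay 56038 bp away.

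**Figure D3:**
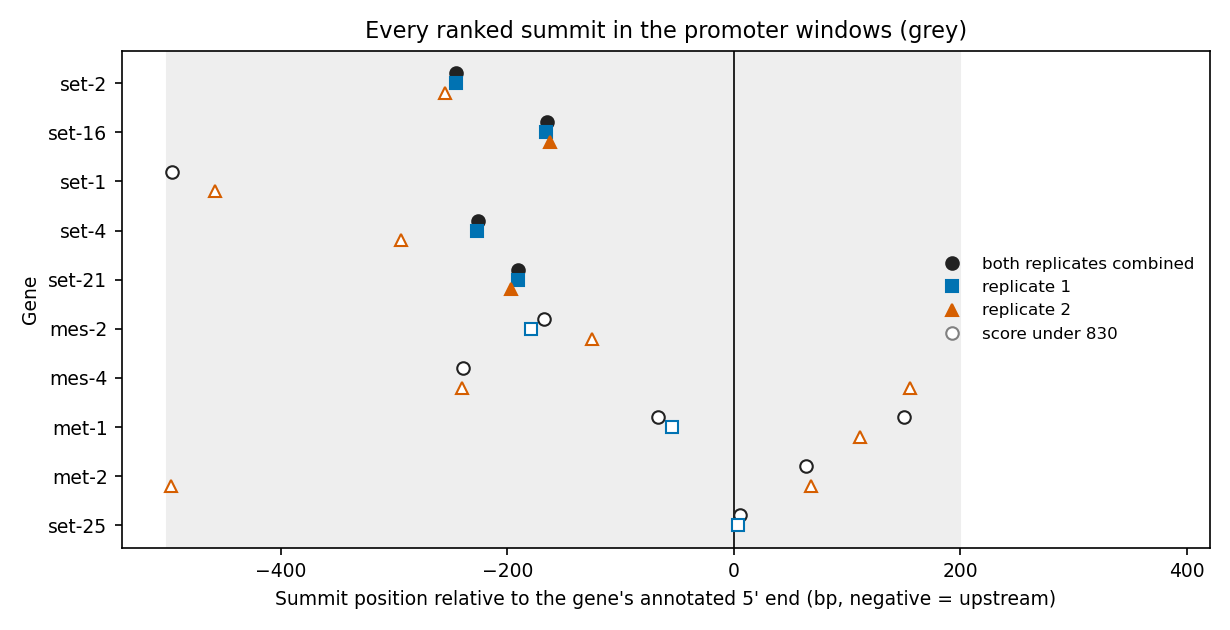
Position in bp of every ranked summit in the 10 promoter windows (grey, 500 bp upstream to 200 bp downstream of the annotated 5' end), with filled symbols for a score of at least 830. The thresholded summits lay between 165 and 245 bp upstream in the combined list, while those of the other genes ranged from 496 bp upstream to 150 bp downstream.

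The 4 marked genes had their summits at a similar distance, between coding genes. The distances of 165, 191, 226 and 245 bp fell between the quartiles, 133 and 308 bp, of all marked coding genes with an upstream summit, whose median was 222 bp (497 genes). Of the 454 peaks in coding promoter windows, 122 (26.9%) marked more than 1 coding gene, as 2 of the 4 peaks here did. The signals of set-16 and set-21 were above the upper quartile of marked genes, 120.0, and those of set-2 and set-4 were below the median of 87.9, set-4 lying above the lower quartile of 70.4. Many annotated 5' ends in the worm are sites of trans-splicing downstream of the start of transcription, so these distances need not be distances to that start.

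The replicates differed more at set-2 and set-4 than at set-16 and set-21. Dividing the signal of replicate 2 by that of replicate 1 gave log2 ratios of -0.15 at set-16, -0.20 at set-21 and -1.08 at set-4, and at set-2 the signals were 28.7 and 57.3. Over the 913 of 1017 combined peaks that had a ranked summit within 100 bp in both replicates, the median ratio was -0.33 and the SD across peaks 0.56. Lower ratios than that of set-2 were found at 10.8% of these peaks and lower ones than that of set-4 at 9.31%. The ratio at mes-2 was -0.35, close to that median. The files do not state that the replicates share a scale, so the ratios are read against the median and not against 0. Some ranked summit of any score lay in the windows of 33.2% of coding genes in replicate 1 and 34.1% in replicate 2. At mes-4, met-2 and set-1 a summit in the window was listed only by replicate 2, and at set-25 only by replicate 1. How many of all coding genes had a summit in the list of only 1 replicate was not counted, so whether this is unusual is not known.

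No summit of the combined thresholded list lay in the body of any of the 10 genes outside its promoter window. These bodies cover 58451 of the 100272607 bp of the 6 chromosomes, and the list held 1017 peaks in all. The share of all coding genes with such a summit was not counted, so the 0 cannot be read as a trait of these genes. In the same bodies the combined ranked list held 57 summits, 0.975 per kb, against 0.653 per kb over the 6 chromosomes. The second density takes in the sequence between genes. The density over the bodies of all coding genes was not computed, so whether 0.975 is high for gene bodies is not known. The median signal of the 57 summits was 21.4. Their highest score was 640, in an exon of set-16 8561 bp downstream of its 5' end, where the signal was 17.3. A second summit of set-16, 8342 bp downstream, had signal 49.6 and score 509. The body summit of highest signal was in an intron of set-25, 7704 bp downstream, with signal 52.3 and score 388. Near mes-4, a site with signal 67.5 and score 536 lay 405 bp beyond the 3' end, in an exon of srd-17, a chemoreceptor gene.

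The marked sites shared no motif of the 6 that were searched in the 151 bp around each summit, on both strands. The EOR-1 motif, CTGCGTCT, matched at 2 places at set-16, centred 34.5 and 32.5 bp from the summit on either side and in the same orientation, and also once near met-1. It matched at least once at 8.81% of the 454 promoter summits and in 2.02% of the 151 bp windows directly upstream of all coding genes. Only 2 of the 454 promoter summits (0.441%) had 2 or more matches, a count made after the pair at set-16 was seen. The E2F motif was searched as TTGGCGC and as its variants, which spell TTCCCGC or else TTCGCGC, the last of them being TTGCCGC. It matched at 1 of the 4 marked genes, set-2, and at 3 of the other 6, mes-2, mes-4 and set-1. Matches were found at 29.7% of promoter summits and in 4.54% of upstream windows. The CHR motif, TTTGAA or TTCGAA, matched at 2 marked genes and 2 others, with 39.9% of promoter summits and 45.8% of upstream windows. GAGAGAGA matched at none of the 10, with 2.86% of promoter summits and 2.12% of upstream windows. The E-box CACGTG matched at met-1 alone (3.74% and 3.45%), and TTTTCAG, like the acceptor site of SL1 trans-splicing, matched at set-25 alone (9.69% and 18.2%), beginning at the annotated 5' end. Such matches describe the letters and do not show that a factor binds.

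The 4 marked sites held more G and C than 5 of the 6 others. The windows of 151 bp held 57.6% GC at set-16, 48.3% at set-21 and 47.7% at each of set-2 and set-4, against a median of 45.7% at promoter summits and 33.1% in the upstream windows. The window of set-16 was above 96.5% of the promoter summits. Among the 6 genes below the threshold the share ran from 38.4% at met-2 to 41.7% at set-25, except at met-1 with 50.3%. The marked summits lay between coding genes, whereas those of met-2 and set-25 lay in exons and that of met-1 in an intron of C43E11.12. Marked and other sites were not matched for place. Part of the difference between summits and upstream windows can follow from their different distances to the gene, which were not matched.

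The rest of the family had no marked gene. The annotation holds 31 further coding genes named set or dot-1, or lin-59, and none had a summit of the combined thresholded list in its window. The 4 marked genes are thus 4 of 41 in the whole family (9.76%), beside 2.79% of all coding genes, and the choice of the 10 was made with this known. In the combined ranked list 14 of the 31 (45.2%) had a summit of any score, close to the share of all coding genes, 42.9%. Their signals ran from 7.09 at set-9 to 45.7 at set-20, with a median of 24.9 beside 26.1 for all coding genes with a ranked summit, and their scores reached 244, at dot-1.1, an H3K79 methyltransferase of the DOT1 family. The signals of met-1 (40.2), met-2 (40.1), set-25 (31.0), mes-4 (21.7) and set-1 (18.4) lay inside the range of these signals. Those of mes-4 and set-1 were below the median of 24.9, and mes-2 (47.5) was just above the range. The genes set-9 and set-26 are close copies of each other, so reads from them may not be told apart. Of the 41 genes, 11 are on the X chromosome, where 0.769% of coding genes were marked, and 7 on chromosome III, where 4.66% were and where 5 of the 10 genes lie.

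**Figure D4:**
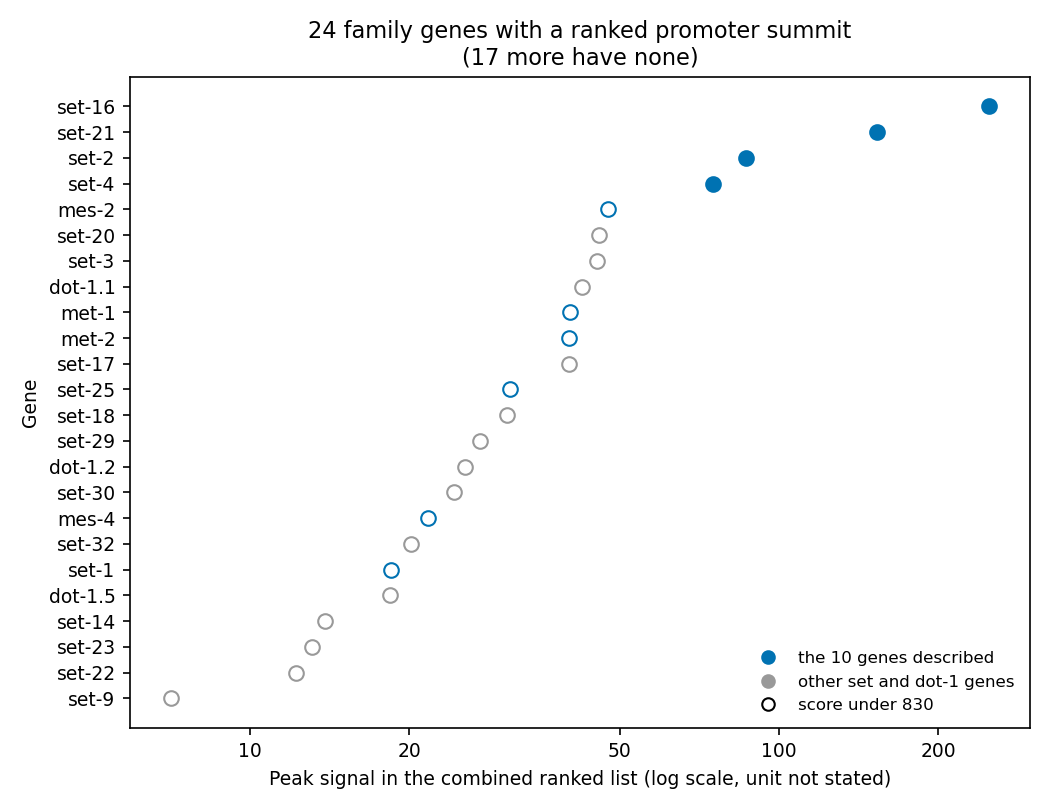
Signal in the combined ranked list (log scale, unit not stated) of the summit of highest signal in the promoter window, for the 24 of 41 family genes that had one, with filled symbols for a score of at least 830. The 4 filled symbols, from 75.04 at set-4 to 249 at set-16, lie above all others, which reach 47.5 at mes-2.

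Over 6 lists of partner and related chromatin genes, 4 genes were marked (6.67%, a gene held by 2 lists being counted once), beside 2.79% of all coding genes, and no test of this difference was made. The order was reversed when each peak was given only to the coding gene with the nearest 5' end. Then 1 partner gene, hat-1, was marked (1.67%), beside 2.19% of all coding genes. None of 12 COMPASS subunits, which hold and activate SET-2 and SET-16 type enzymes, was marked, among them ash-2, rbbp-5, dpy-30 and cfp-1. With windows at the 5' end of any annotated transcript instead, ash-2 was marked. Neither mes-3 nor mes-6 was marked, and mes-6 had a signal of 49.98 with a score of 591 at a summit 45 bp downstream, between the thresholds of 540 and 830. Of 9 H3K9 methylation partners and methyl-lysine readers, 1 was marked, mrg-1, the homologue of the chromodomain protein MRG15. Its signal was 119.9 at 210 bp upstream. The lysine demethylase list held 14 genes and took in every jmjd gene by name, so not all of them need remove histone marks. Of the 14, 2 (14.3%) were marked, jmjd-1.2 and jmjd-4. The signal was 120.0 at 432 bp upstream of jmjd-1.2, a homologue of PHF8, and 90.3 at 139 bp upstream of jmjd-4. In the replicates, jmjd-1.2 was marked by the thresholded list of replicate 1 alone and jmjd-4 by that of replicate 2 alone. None of 6 arginine methyltransferase genes was marked. Of 18 acetyltransferase and deacetylase genes, 1 (5.56%) was marked, hat-1, which encodes a histone acetyltransferase, with a signal of 154 at 217 bp upstream, and each replicate marked it. The peaks at mrg-1, jmjd-4 and jmjd-1.2 each marked 2 coding genes and lay nearer to the 5' end of the other one.

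**Figure D5:**
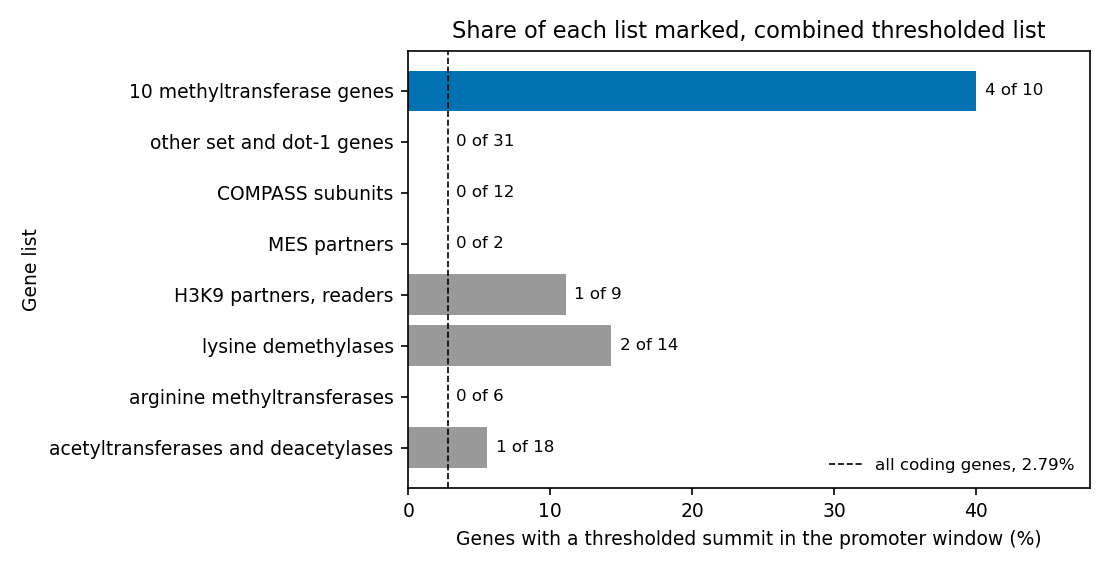
Share in percent of the genes of each list with a summit of the combined thresholded list in the promoter window, with the counts beside the bars and the share of all coding genes, 2.79%, as a dashed line. The 10 genes were chosen with their peaks known, and the lists without a bar had 0 marked genes.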

How the data were processed

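Chromatin immunoprecipitation followed by sequencing gave 8 peak lists on ce11, per the labels, and the reference used here, WBcel235, is the same assembly. Deposited text files name the alignments behind each list and 1 or 2 further source files, whose content they do not state. For the aligner and the caller of the peaks, versions and names were not given in the sources used here. The signal and the score of each peak are the authors' deposited values. The score followed the deposited −log10 of the IDR to within 1.0 score unit, with a cap of 1000. No list holds read counts, so the depth of each sample is unknown. In the pooled ranked lists 16 columns name no sample and were left out.

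Summits (start plus offset, counted from 1) were assigned to coding genes of Ensembl release 115, and sequence was read from RefSeq's copy of WBcel235, with pandas 2.3.3 and Python 3.11.15. Ranks are by signal within a list. The assignment was tested on simulated data. The members, gene lists and motifs were chosen with earlier results of these data known, so no test was made. The genes named were the 10 members, the genes sharing their peaks, and the marked genes of the family and partner lists; ash-2, mes-6 and others given with values below the threshold were chosen after their values were seen.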

Additional observations from a re-analysis of the deposited data

How the results depend on the processing

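The number of marked genes among the 10 was 4, and it ran from 2 to 4 when either replicate's thresholded list was used alone, the 2 without replicate 1 being set-16 and set-21. It was 3 or 4 under the other 8 alternatives (the conservative list, the combined peaks above the median signal, a score of 540, 2 other windows, the 5' ends of all transcripts, any overlap of the peak, 1 gene per peak). The count over the other 31 family genes was 0 under all 10 alternatives. Over all coding genes it was 558, ran from 268 to 344 with the list of 1 replicate, and was 336 with the peaks above the median signal, 862 at a score of 540 and 335 with the narrower window. The partner lists had 4 marked genes, 1 with 1 gene per peak, and 3 to 6 otherwise. No paired analysis was possible because there was 1 group. The unknown depth and the unstated scale of the signal limit what a missing summit shows.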
